A study of Homo sapiens with 24 samples.

Results

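KB02, a small molecule known here only by its code name, was given to 22Rv1 cells, an established line from a human prostate carcinoma. RNA was then measured by RNA sequencing and set against cells that received the vehicle, DMSO. The series holds 24 samples, and 6 of them make this comparison: 3 KB02 libraries and 3 DMSO libraries, described in the design text as biological triplicates. KB02 was used at 200 µM. Its time point of 3 h is made up, in the design text, of 1 h with the compound and 2 h of recovery in fresh medium. DMSO cells carry the same 3 h label and no dose. A group of 3 libraries from cells given KB05, a second code-named compound at the same dose and time, was used to ask which changes were KB02's own. All 9 libraries came from the same cell line, and the labels name no batch and no other agent. Of 60232 genes in the table, 18379 had enough counts to be tested, and all of these are the members described here.

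Cells answer damaged or chemically modified proteins with a set of conserved programs. Heat shock factor 1 raises cytosolic chaperones, kinases of the integrated stress response slow translation and raise ATF4 and its targets, and NRF2 raises enzymes that handle oxidants and electrophiles. Stress kinases also raise immediate-early genes such as FOS and EGR1, while the unfolded protein response adjusts the folding capacity of the endoplasmic reticulum. Release of paused RNA polymerase II by the kinase P-TEFb, which HEXIM1 holds in reserve, is one of the points where all of these programs meet transcription.

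Prostate luminal markers were present in every library. KRT8, a keratin of luminal cells, lay between 894 and 1156 CPM in DMSO and KB02 libraries. CPM is the count scaled to library size with edgeR's TMM factors. Of 22 markers of other cell types, 12 passed the filter. CDH5 of endothelium had 0 reads in all 9 libraries together, KRT5 of basal epithelium 1, MS4A1 of B cells 2 and VWF of endothelium 3. The summed level of the 12 tested markers was 915 to 950 CPM in DMSO, 339 to 385 CPM with KB02 and 629 to 659 CPM with KB05. Most of it was ALB, the serum albumin gene, at 880, 872 and 900 CPM in DMSO and 328, 318 and 280 CPM with KB02. PTPRC, a leukocyte gene, was at 11.5, 12.5 and 18.6 CPM in DMSO and 10.3, 6.84 and 11.9 CPM with KB02. Against DMSO, CD14, LYZ and COL1A1 of this list were higher with KB02 and ALB was lower. The part of such RNA in the results below was not tested, and in bulk samples fewer cells of a type and less RNA per cell cannot be told apart.

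Total counts per library ran from 17216760 to 21900548 for KB02, from 17565188 to 19830340 for DMSO and from 15506975 to 19617207 for KB05. On the first 2 principal components, with 56.7% and 30.7% of the variance, the 3 groups lay apart without overlap. The share of counts from mitochondrially encoded protein genes was 13.8% to 15.4% in DMSO, 11.2% to 12.3% with KB02 and 9.2% to 10.1% with KB05.

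A gene was called when its adjusted p from edgeR's quasi-likelihood test was below 0.05, adjusted by Benjamini-Hochberg over all genes tested. KB02 changed 8470 genes against DMSO, 46.1% of those tested. Of all tested genes, 22.8% were higher (4191) and 23.3% lower (4279). The median size of the log2 fold change over all genes was 0.37. Genes called and at least 2-fold higher numbered 1110 (6.04%), and those at least 2-fold lower numbered 1154 (6.28%). With library sizes alone in place of TMM factors, 63.8% of the calls against DMSO were higher, in place of 49.5%, and the median over all genes moved from 0.00 to 0.13. For the contrast with KB05 described next, the same change moved the share from 45.6% to 62.6%.

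The balance of rises and falls shifted with the level of a gene. Among genes with a mean log2 CPM of 0 to 2, 9.13% were called and at least 2-fold higher with KB02 and 7.47% at least 2-fold lower. Among genes above 8 the order was the reverse, with 4.10% and 11.2%. Protein-coding genes were higher in 23.9% and lower in 27.4% of 14396 cases. Long intergenic RNA genes were higher in 18.1% and lower in 7.99% of 1001 cases, and antisense RNA genes in 16.9% and 8.91% of 1178. Libraries whose strand setting is not given cannot separate an antisense gene from its partner.

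Which responses belong to KB02 was asked by comparing it directly with KB05. That contrast called 7346 genes, 40.0% of those tested, with 3348 (18.2%) higher and 3998 (21.8%) lower in KB02. At least 2-fold higher were 962 (5.23%) and at least 2-fold lower 756 (4.11%). KB05 against DMSO called 7321 genes (39.8%), with 3434 (18.7%) higher and 3887 (21.1%) lower, of which 913 (4.97%) and 496 (2.70%) passed 2-fold. A gene was counted as apart in KB02 when KB02 was called in the same direction against DMSO and against KB05. Higher than in both other groups were 2055 genes (11.2%), and 2448 genes (13.3%) were lower than in both. At least 2-fold in both contrasts, 490 genes (2.67%) were higher and 243 (1.32%) lower. Counts within the gene lists below are to be read beside these shares and those against DMSO (22.8% higher, 23.3% lower). The contrasts share libraries: both comparisons with DMSO use the same DMSO libraries, and the 2 contrasts behind a gene apart in KB02 use the same KB02 libraries. KB05 values are therefore given side by side with those of KB02, and the direct contrast is the test of the difference.

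**Figure D1:**
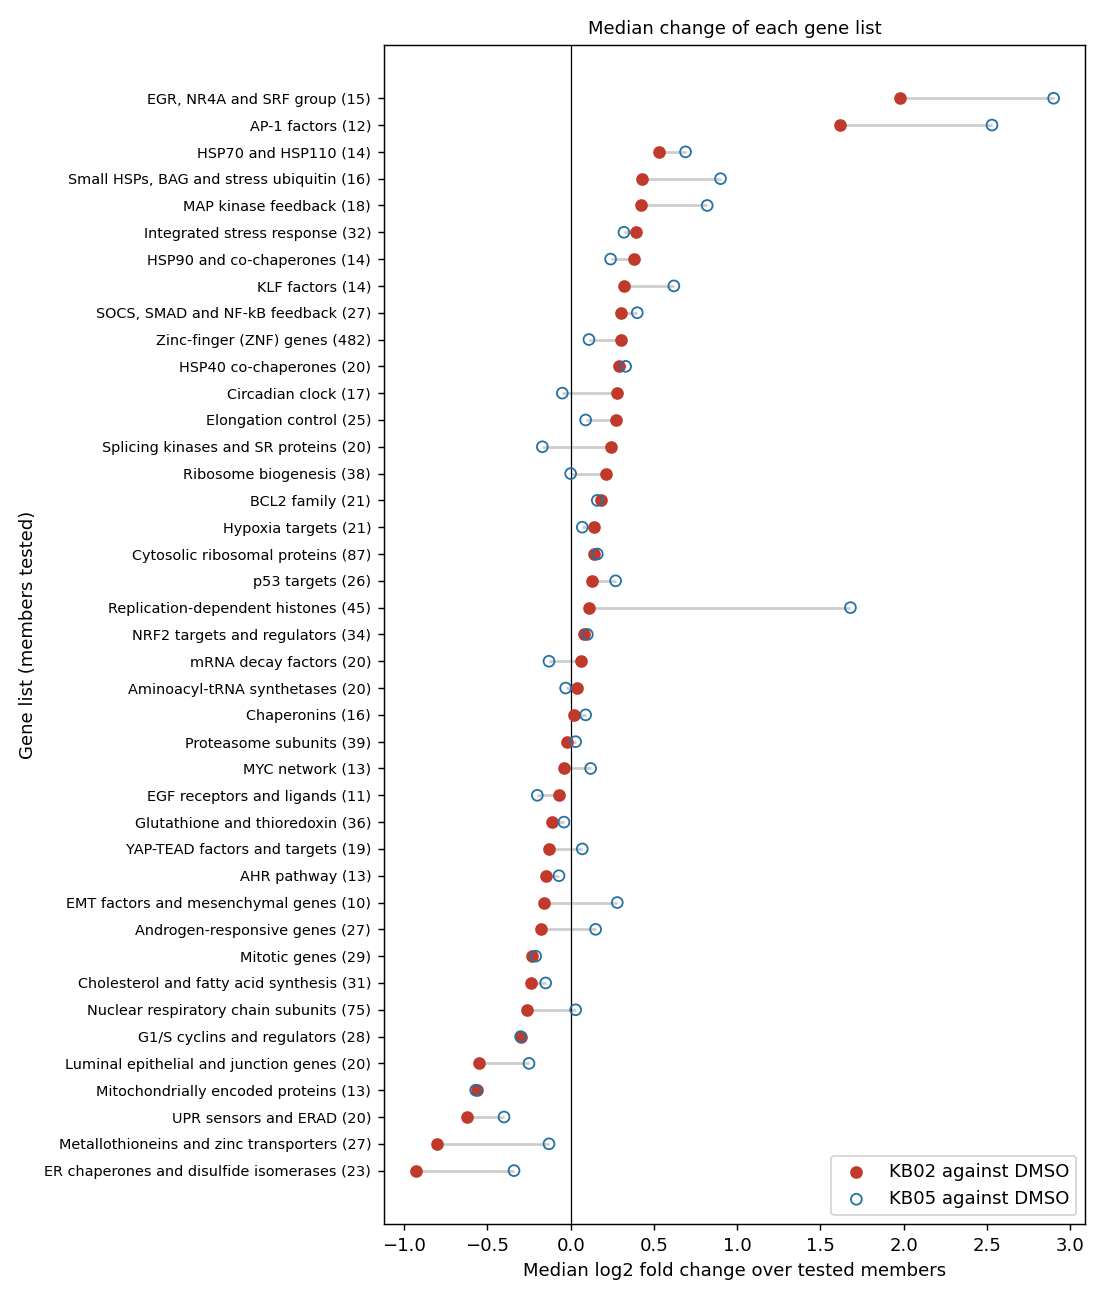
Median log2 fold change of the tested members of each gene list for KB02 against DMSO (filled points) and KB05 against DMSO (open points), which share the DMSO libraries. Members tested are in brackets. KB02 medians run from -0.93 for endoplasmic reticulum chaperones to 1.98 for the EGR, NR4A and SRF group, beside a median of 0.00 over all genes tested.

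Most cytosolic chaperone genes were higher with KB02. Of 66 genes in the 4 heat shock lists (HSP70 and HSP110, HSP40, HSP90 with its co-chaperones, and small heat shock proteins with BAG proteins and stress ubiquitin), 64 were tested. Of these, 43 were higher and 5 lower, with a median log2 fold change of 0.43. HSPA6, an HSP70 with little expression in unstressed cells, was at 4.02, 3.05 and 5.29 CPM in DMSO and 91.6, 87.5 and 62.8 CPM with KB02. HSPA1A, the main inducible HSP70, went from 76.3, 59.1 and 83.5 CPM to 1457, 1508 and 1325 CPM. The groups did not overlap for either gene, and the log2 fold changes were 4.31 ± 0.47 and 4.30 ± 0.21 (± SE, adjusted p = 0.000335 and 1.77e-06). HSPA1B, a near copy of HSPA1A, rose by 3.48 ± 0.11. Reads of HSPA1A and HSPA1B are divided between the copies by estimate, so the value of each is uncertain.

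The upstream sequences of these 3 genes are shown because heat shock factor binds inverted GAA units. Each is the 250 bases before the RefSeq start on GRCh38.p14, with heat shock element pairs (GAANNTTC or TTCNNGAA, searched on both strands) in capitals. All 3 lie on the plus strand, HSPA6 at chr1:161524290-161524539, HSPA1A at chr6:31815293-31815542 and HSPA1B at chr6:31827488-31827737.
HSPA6: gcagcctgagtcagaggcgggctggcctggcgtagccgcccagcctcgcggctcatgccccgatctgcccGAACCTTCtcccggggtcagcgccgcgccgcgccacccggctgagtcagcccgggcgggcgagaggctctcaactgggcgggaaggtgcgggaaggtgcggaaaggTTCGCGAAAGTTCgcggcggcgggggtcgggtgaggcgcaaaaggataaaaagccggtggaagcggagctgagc
HSPA1A: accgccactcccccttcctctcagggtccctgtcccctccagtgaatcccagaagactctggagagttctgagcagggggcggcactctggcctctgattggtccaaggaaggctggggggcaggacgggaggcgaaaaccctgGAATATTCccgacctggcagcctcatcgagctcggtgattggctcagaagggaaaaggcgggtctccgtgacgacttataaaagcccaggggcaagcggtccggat
HSPA1B: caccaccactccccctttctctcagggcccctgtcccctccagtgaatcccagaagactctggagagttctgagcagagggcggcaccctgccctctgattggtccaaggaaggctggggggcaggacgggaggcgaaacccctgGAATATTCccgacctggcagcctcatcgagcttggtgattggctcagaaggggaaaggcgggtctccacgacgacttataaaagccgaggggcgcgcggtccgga
HSPA6 held 3 matches, starting 180, 74 and 69 bases before the start, and the latter 2 overlap each other. HSPA1A held 1 match at 106 bases and HSPA1B 1 at 105. A RefSeq promoter was found for 12504 of the 18379 tested genes, and 8.74% of these held such a pair within 250 bases. Among heat shock list genes called higher with KB02, 12 of 39 (30.8%) held one, and among those not called higher 2 of 18 (11.1%). The 12 are not independent. HSPA1L is among them, and its window (chr6:31815284-31815533, minus strand) overlaps that of HSPA1A and holds the same match. HSPA1B is a near copy of HSPA1A. In the nearest 100 bases the shares were 3 of 39 (7.69%) and 2 of 18 (11.1%), beside 2.78% of all. A match describes the letters only and is not a binding site.

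Among the co-chaperones, HSPH1, an HSP110 that recharges HSP70 with ATP, was at 49.1, 43 and 47.9 CPM in DMSO and 455, 461 and 495 CPM with KB02. It rose by 3.33 ± 0.08 and was also higher than with KB05, by 0.41 ± 0.07 (adjusted p = 3.74e-05). DNAJB1, the HSP40 that pairs with HSP70 and restrains heat shock factor 1, rose by 3.20 ± 0.11. DNAJB4 rose by 3.04 ± 0.10 from 7.04, 6.25 and 7.05 CPM. DNAJA1 rose by 1.62 ± 0.08 and DNAJA4 by 2.00 ± 0.10. Among HSP90 partners, CHORDC1 rose by 1.58 ± 0.09, AHSA1, which speeds the ATPase of HSP90, by 0.91 ± 0.07, and STIP1, which links HSP70 to HSP90, by 0.86 ± 0.07. HSP90AA1, the inducible HSP90, rose by 0.96 ± 0.08. BAG3, which couples HSP70 to autophagy, rose by 2.36 ± 0.16. DEDD2, a death effector domain gene placed in that list, went from 17.1, 17.3 and 19.7 CPM to 180, 165 and 160 CPM.

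The 2 compounds ranked differently from chaperone to chaperone. KB05 gave higher values for HSPA6 (599, 737 and 1341 CPM), HSPA1A (4202, 5106 and 6426 CPM) and DNAJB1 (1283, 1461 and 1773 CPM), and the direct differences were -3.46 ± 0.36, -1.87 ± 0.19 and -0.94 ± 0.10 on the log2 scale. KB05 replicate 3 was the highest of the KB05 libraries for each of these genes. KB02 gave the higher values for DEDD2 (difference 0.81 ± 0.08), STIP1 (0.43 ± 0.07), DNAJB4 (0.41 ± 0.08), DNAJA1 (0.26 ± 0.08), CHORDC1 (0.25 ± 0.09) and AHSA1 (0.20 ± 0.07). Without KB05 replicate 1, the calls for DNAJA1, CHORDC1 and AHSA1 were lost, at differences of 0.18, 0.18 and 0.13 with adjusted p of 0.09, 0.164 and 0.182. Without KB05 replicate 2, those for CHORDC1 and AHSA1 were lost, at 0.25 and 0.20 with adjusted p of 0.0615 and 0.0672. Over the 4 lists, 15 of 64 genes were higher with KB02 than with KB05 and 20 lower, beside 18.2% and 21.8% of all genes tested. Compared with both other groups, 14 were higher and 2 lower, beside 11.2% and 13.3% of all genes tested. HSF1, the factor itself, did not pass the test (-0.03 ± 0.07 against DMSO, 95% interval -0.18 to 0.12).

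Chaperonins are ring-shaped chambers that fold whole proteins, and prefoldins hand proteins to them. Of 16 genes of both kinds, 4 were higher and 4 lower with KB02, shares of 25.0% each that are near those over all genes tested. The subunit gene TCP1 rose from 280, 280 and 283 CPM to 517, 503 and 458 CPM, by 0.81 ± 0.07, and was also higher than with KB05 by 0.61 ± 0.07. Its partner subunit CCT2 fell, with a log2 fold change of -0.42 ± 0.07. HSPD1, the mitochondrial chaperonin, rose by 0.48 ± 0.08.

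**Figure D2:**
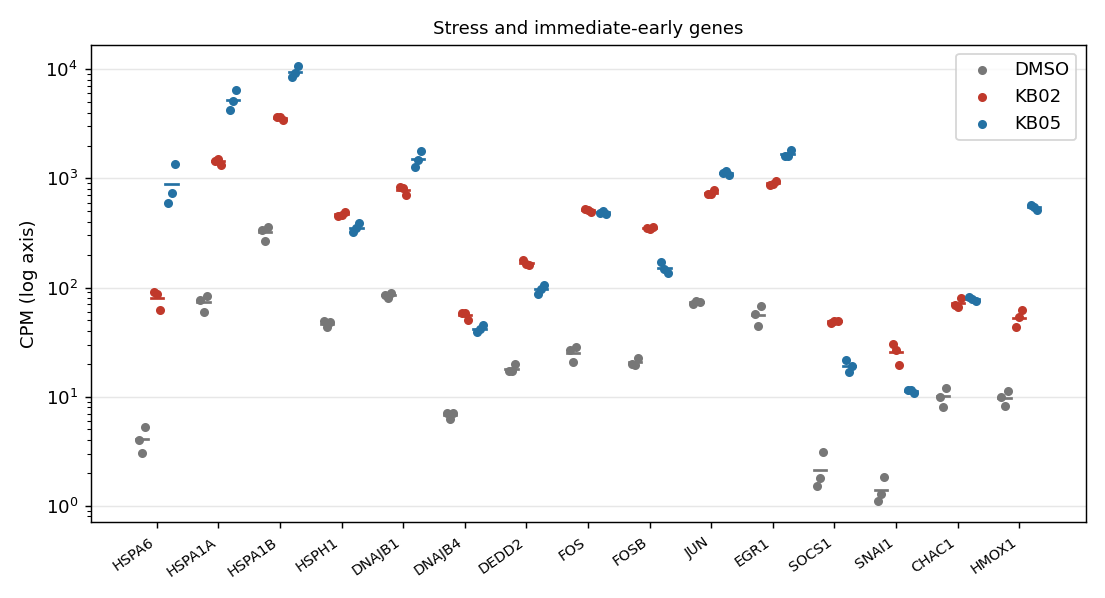
Level of stress and immediate-early genes in each library, as TMM-scaled CPM on a log axis, with bars at group means of 3 libraries. KB02 libraries lie above all DMSO libraries for each gene shown, and KB05 libraries lie above KB02 for HSPA6, HSPA1A, HSPA1B, DNAJB1, JUN, EGR1 and HMOX1.

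Most immediate-early transcription factors were higher with KB02. Of 12 AP-1 factors, 8 were higher and 0 lower, with a median log2 fold change of 1.62, and of 15 genes in the EGR, NR4A and SRF group, 13 were higher and 2 lower, with a median of 1.98. FOS, which pairs with JUN in AP-1, was at 26.6, 20.7 and 28.2 CPM in DMSO, 523, 514 and 496 CPM with KB02 and 485, 501 and 475 CPM with KB05. It rose by 4.35 ± 0.09, and the difference from KB05 was 0.07 ± 0.08 (95% interval -0.09 to 0.22), which did not pass the test. FOSB was at 19.7, 19.5 and 22.7 CPM in DMSO, 354, 343 and 360 CPM with KB02 and 170, 149 and 137 CPM with KB05. FOSB was the 1 AP-1 gene of the 12 called higher with KB02 than with KB05, by 1.21 ± 0.08 (adjusted p = 7.33e-14). JUN rose by 3.33 ± 0.08, and was lower than with KB05 by 0.60.

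EGR1, a zinc-finger factor that serum and stress kinases switch on through serum response factor, was at 57.7, 44.4 and 67.4 CPM in DMSO and 878, 892 and 948 CPM with KB02. It rose by 4.01 ± 0.13, and KB05 gave more (1606, 1588 and 1835 CPM). Its upstream 250 bases on GRCh38.p14 (chr5:138465229-138465478, plus strand) are shown for the CArG boxes that serum response factor recognises, in capitals.
EGR1: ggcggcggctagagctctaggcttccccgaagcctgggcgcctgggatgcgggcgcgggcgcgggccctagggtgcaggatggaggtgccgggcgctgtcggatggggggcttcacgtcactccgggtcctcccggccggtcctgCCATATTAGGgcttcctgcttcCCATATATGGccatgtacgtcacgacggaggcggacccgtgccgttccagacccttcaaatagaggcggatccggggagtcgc
The 2 matches start 105 and 83 bases before the RefSeq start. CArG boxes were found in 0.952% of the 12504 promoters and in 0.993% of the 604 promoters of genes at least 2-fold higher with KB02. For AP-1 sites (TGANTCA, both strands) the shares were 3.97% and 6.62%, and for the cAMP response element (TGACGTCA, both strands) 2.78% and 4.30%.

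Within the EGR and NR4A group the gap to KB05 varied from gene to gene. EGR2 rose by 3.26 ± 0.16 and IER2 by 2.85 ± 0.09, and their differences from KB05 were 0.22 ± 0.12 and -0.05 ± 0.08, neither past the test. NR4A1, an orphan nuclear receptor, was at 35.6, 36.8 and 41.5 CPM in DMSO, 57.3, 51.5 and 56.6 CPM with KB02 and 591, 571 and 487 CPM with KB05. It rose by 0.54 ± 0.08 with KB02 and stood 3.32 below KB05 on the log2 scale. FOSL1 showed no call against DMSO (0.01 ± 0.27), while KB05 raised it by 2.43 ± 0.23. NR4A1 and FOSL1 were chosen after their values were seen. Directly compared, 5 of the 12 AP-1 genes and 12 of the 15 EGR, NR4A and SRF genes were lower with KB02 than with KB05.

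Feedback genes of these pathways rose and fell. DUSP phosphatases and Sprouty and SPRED proteins, which switch MAP kinases off, held 10 higher and 2 lower of 18. DUSP1 rose from 23.4, 23.6 and 23.3 CPM to 52.3, 51.4 and 59.6 CPM with KB02 and reached 140, 135 and 129 CPM with KB05. DUSP2 and DUSP10 rose by 1.49 ± 0.08 and 1.39 ± 0.09. DUSP4 and SPRY1 fell with KB02 (-0.63 ± 0.10 and -0.83 ± 0.19) and were higher than DMSO with KB05 (1.94 ± 0.09 and 0.96 ± 0.17); both were chosen after their values were seen. SOCS1, an inhibitor of JAK kinases, was at 1.53, 1.81 and 3.1 CPM in DMSO, 47.4, 49.7 and 49.8 CPM with KB02 and 21.6, 16.8 and 18.9 CPM with KB05. Its rise of 4.53 ± 0.15 exceeded that with KB05 by 1.35 ± 0.11 (adjusted p = 7.67e-10). SOCS3, its relative, rose by 2.74 ± 0.27 and was lower than with KB05. In the list of SOCS, SMAD and NF-kB feedback genes, 14 of 27 were higher and 4 lower. Compared with both other groups, 6 were higher and 4 lower, beside 11.2% and 13.3% of all genes tested. The 4 lower are near that share. KLF15, KLF2 and KLF10, zinc-finger factors of the KLF list, rose by 1.77 ± 0.10, 1.61 ± 0.16 and 1.60 ± 0.11, and 5 of the 14 KLF genes were higher and 0 lower.

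Genes that control RNA polymerase II elongation were among those higher with KB02 than in both other groups. Of 25 tested, 14 were higher and 5 lower against DMSO (median 0.27), and 13 higher and 7 lower against KB05. Compared with both, 11 were higher and 3 lower, beside 11.2% and 13.3% of all genes tested. HEXIM1, which keeps P-TEFb inactive, was at 77.9, 74.8 and 80.9 CPM in DMSO, 211, 189 and 207 CPM with KB02 and 107, 114 and 112 CPM with KB05. BRD2, a BET bromodomain protein that reads acetylated histones, was at 228, 231 and 238 CPM in DMSO, 571, 533 and 558 CPM with KB02 and 250, 246 and 245 CPM with KB05. KB02 libraries lay above all others for both genes, with rises of 1.38 ± 0.07 and 1.25 ± 0.07 and differences from KB05 of 0.87 ± 0.07 and 1.17 ± 0.07 (edgeR adjusted p = 1.26e-11 and 6.25e-15). For BRD2, the change with KB05 was 0.09 ± 0.07 and did not pass the test. POLR2A, the largest subunit of the polymerase, rose by 0.82 ± 0.08, and SUPT6H, an elongation factor that travels with it, by 0.61 ± 0.07. Neither was called for KB05 against DMSO (0.05 and -0.08). ELL2 and CCNT1, an elongation factor and the cyclin of P-TEFb, fell, with log2 fold changes of -0.56 ± 0.08 and -0.45 ± 0.10; they were chosen after their values were seen.

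Splicing kinases and SR proteins moved apart under the 2 compounds. With KB02, 11 of 20 were higher and 2 lower, and with KB05 1 was higher and 9 lower. Directly compared, 14 were higher with KB02 and 1 lower, with a median difference of 0.45 beside -0.06 over all genes tested. CLK1, a kinase that phosphorylates SR proteins, was at 74.3, 73.2 and 81.2 CPM in DMSO, 205, 196 and 181 CPM with KB02 and 53.8, 56.2 and 61.7 CPM with KB05. KB02 raised CLK1 by 1.35 ± 0.07, KB05 lowered it (-0.41 ± 0.08), and the difference was 1.76 ± 0.07 (adjusted p = 9.51e-18). TRA2A, an SR-like activator of exon inclusion, was at 75.5, 72.8 and 76.2 CPM in DMSO, 149, 142 and 147 CPM with KB02 and 58.5, 64.2 and 60.5 CPM with KB05. It and TRA2B both rose with KB02, by 0.96 ± 0.07 and 0.58 ± 0.07, and fell with KB05. SRSF11 rose by 0.69 ± 0.07. SRSF5 and SRSF9 were the members that fell with KB02, by 0.25 and 0.15 on the log2 scale. The table counts genes and not isoforms, so whether the transcripts that rose are the coding forms was not tested.

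Clock genes were higher with KB02 or not called. Of 17, 9 were higher and 0 lower, and 5 were higher than in both other groups, beside 11.2% of all genes tested. NR1D1, a repressor of BMAL1, was among the 9, but its call was lost without DMSO replicate 1 or KB02 replicate 1 (log2 fold change 0.52 in both, edgeR adjusted p = 0.0536 and 0.0563). PER1, a period gene that also responds to stress signals, was at 44.8, 54.9 and 61.8 CPM in DMSO, 182, 166 and 175 CPM with KB02 and 74.3, 68.3 and 61.3 CPM with KB05. It rose by 1.70 ± 0.10 and exceeded KB05 by 1.36 ± 0.09. BMAL1, the partner of CLOCK, rose by 0.95 ± 0.17 from 4.34, 4.39 and 5.17 CPM and differed from KB05 by 1.33 ± 0.18. NFIL3, a repressor of clock outputs, rose by 1.74 ± 0.15, with a difference from KB05 of 0.06 ± 0.14 that did not pass the test.

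**Figure D3:**
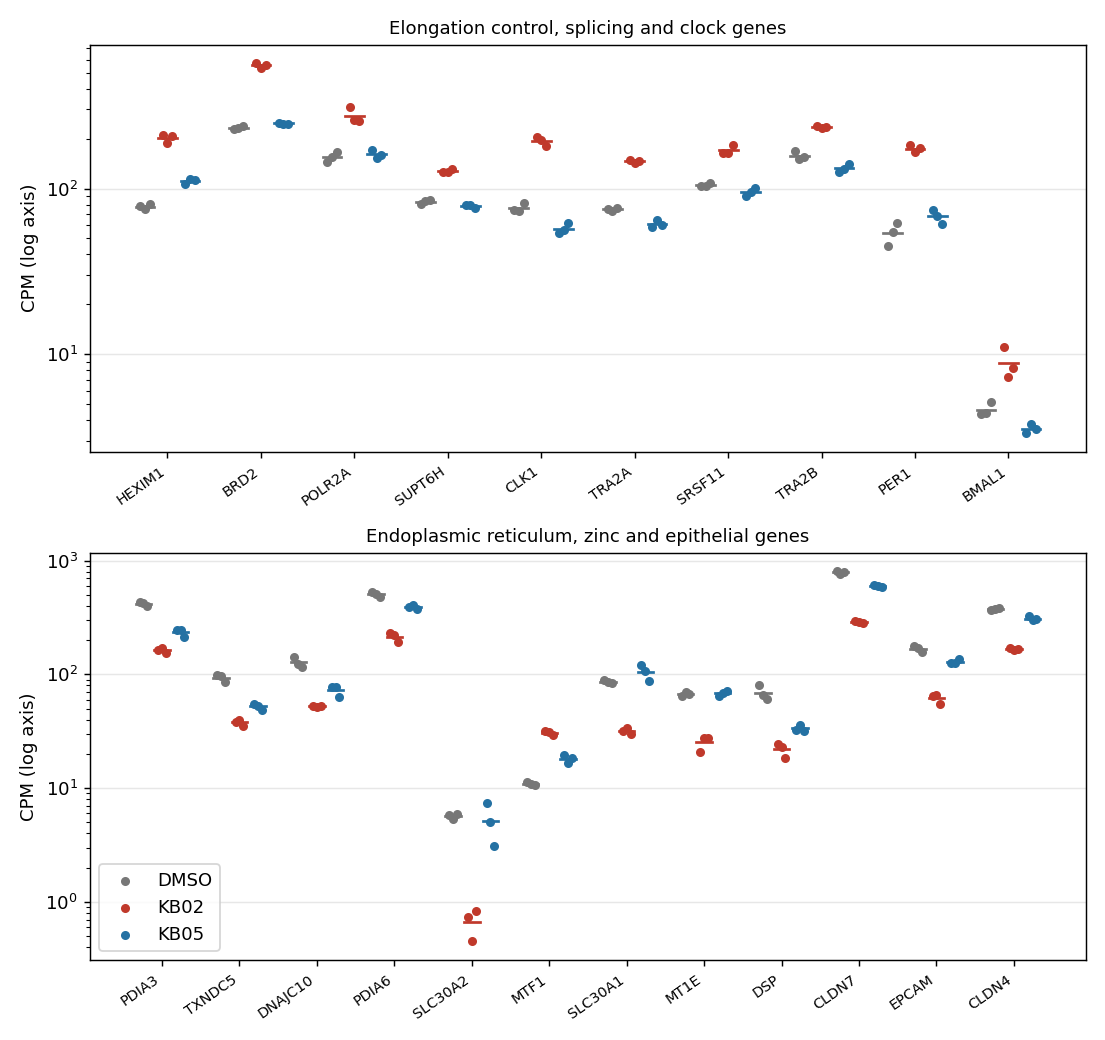
Level in each library of elongation, splicing and clock genes (upper panel) and of endoplasmic reticulum, zinc and epithelial genes (lower panel), as TMM-scaled CPM on log axes with bars at group means of 3 libraries. KB02 libraries lie above all DMSO and KB05 libraries for every gene of the upper panel and, apart from MTF1, below all of them for every gene of the lower panel.

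Of 20 mRNA decay genes, 6 were higher and 6 lower with KB02. XRN1, the cytoplasmic exonuclease that degrades decapped mRNA, was at 14.1, 13.4 and 13.1 CPM in DMSO, 24.4, 24 and 21.3 CPM with KB02 and 11.4, 10.6 and 10.7 CPM with KB05, and the difference between the compounds was 1.09 ± 0.11. ZFP36, which binds AU-rich elements of short-lived mRNAs, rose by 1.34 ± 0.08 and was lower than with KB05. TOB1, an adaptor of the deadenylase complex, fell, with a log2 fold change of -0.82 ± 0.11.

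Zinc-finger (ZNF) genes, most of them transcriptional repressors of the KRAB type, were higher more often than lower. Of 557 listed, 482 were tested; 226 were higher and 55 lower with KB02, with a median of 0.30. With KB05 against DMSO, 147 were higher and 75 lower. KB02 directly against KB05 gave 172 higher and 43 lower. Compared with both other groups, 128 were higher and 12 lower, beside 11.2% and 13.3% of all genes tested. ZNF844 was at 7.14, 5.99 and 7.54 CPM in DMSO, 58.6, 65.1 and 68.2 CPM with KB02 and 42.6, 43 and 37.4 CPM with KB05, a rise of 3.22 ± 0.10. ZNF442 rose by 3.03 ± 0.19 and ZNF547 by 2.89 ± 0.16. ZNF547 stayed at 3.02, 2.34 and 2.99 CPM with KB05, beside 2.65, 3.05 and 4.01 CPM in DMSO and 27, 24.7 and 19.5 CPM with KB02, and the direct difference was 3.08 ± 0.16. ZNF280A had low counts, from 0.423, 0.62 and 0.547 CPM in DMSO to 6.64, 4.37 and 2.6 CPM with KB02. Chromosome 19, which holds many of these genes, had 35.3% of its 1341 tested genes higher and 16.1% lower with KB02. With KB05 these shares were 29.1% and 14.9%, beside 18.7% and 21.1% of all genes tested, so the lean was seen with both compounds. Related ZNF genes share sequence, and reads common to several are divided by estimate.

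The genes that stood farthest above both other groups were low in DMSO. They were chosen by these values, which are given as a description, with GENCODE positions on GRCh38. C1S, a complement protease (chr12:6988259-7071032), was at 0.423, 0.207 and 0.547 CPM in DMSO, 14.1, 9.82 and 5.82 CPM with KB02 and 0.417, 0.13 and 0.23 CPM with KB05. CD14, the monocyte co-receptor for lipopolysaccharide (chr5:140631728-140633701), was at 0.635, 0.258 and 0.729 CPM in DMSO, 11.8, 7.57 and 7.04 CPM with KB02 and 0.104, 0.455 and 0.632 CPM with KB05. AOC3, a vascular amine oxidase (chr17:42851184-42858130), was at 2.01, 1.29 and 2.01 CPM in DMSO, 28.4, 22.2 and 25 CPM with KB02 and 0.313, 0.845 and 0.46 CPM with KB05. KB02 libraries were far above both other groups for all 3 genes, and the log2 rises over DMSO were 4.67 ± 0.40, 4.04 ± 0.36 and 3.84 ± 0.18. The differences from KB05 were 5.18 ± 0.42, 4.49 ± 0.38 and 5.58 ± 0.22. A count of 3 reads, the floor used here for counting error, corresponds to 0.129 to 0.195 CPM.

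The other genes of this kind included IKZF4, an Ikaros-family factor, at 2.75, 1.65 and 1.88 CPM in DMSO, 21.1, 20.3 and 19.4 CPM with KB02 and 1.72, 1.89 and 1.09 CPM with KB05. PYGM, the muscle glycogen phosphorylase, rose by 3.53 ± 0.28, THSD1, a thrombospondin-domain protein, by 3.02 ± 0.21, and NHLH1, a neural basic helix-loop-helix factor, by 4.17 ± 0.33. NNMT, nicotinamide N-methyltransferase, rose by 3.38 ± 0.30, BAAT, which conjugates bile acids, by 3.70 ± 0.33, and the receptor gene GPR83 by 3.72 ± 0.34. Several are usually expressed in liver, muscle or blood cells. Of the 12 tested markers of other cell types, 3 were higher with KB02 (CD14, LYZ and COL1A1) and 1 lower (ALB). These shares, 25.0% and 8.3%, lay beside 22.8% and 23.3% of all genes tested. CD14 is also among the genes chosen above by their values with KB02. The part of other cell types in these rises was not tested. LYZ, lysozyme, was at 1.22, 1.08 and 1.4 CPM in DMSO and 1.94, 2.43 and 2.33 CPM with KB02, and COL1A1, a collagen chain, at 13.2, 15.4 and 14.8 CPM and 20.3, 20.3 and 27.5 CPM.

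Of the genes that KB02 raised and KB05 lowered, 4 were taken by the size of the change. CHRNA10, a nicotinic receptor subunit, was at 3.18, 2.58 and 2.13 CPM in DMSO, 17.5, 15 and 18.8 CPM with KB02 and 0.625, 0.65 and 0.69 CPM with KB05. KCND1, a potassium channel, was at 0.9, 1.45 and 1.82 CPM in DMSO, 6.72, 7.97 and 9.48 CPM with KB02 and 0.469, 0.26 and 0.575 CPM with KB05. CRYGS, a lens crystallin, differed between the compounds by 3.22 ± 0.22, and AOC3, already described, was the fourth. The 3 groups did not overlap for these genes.

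**Figure D4:**
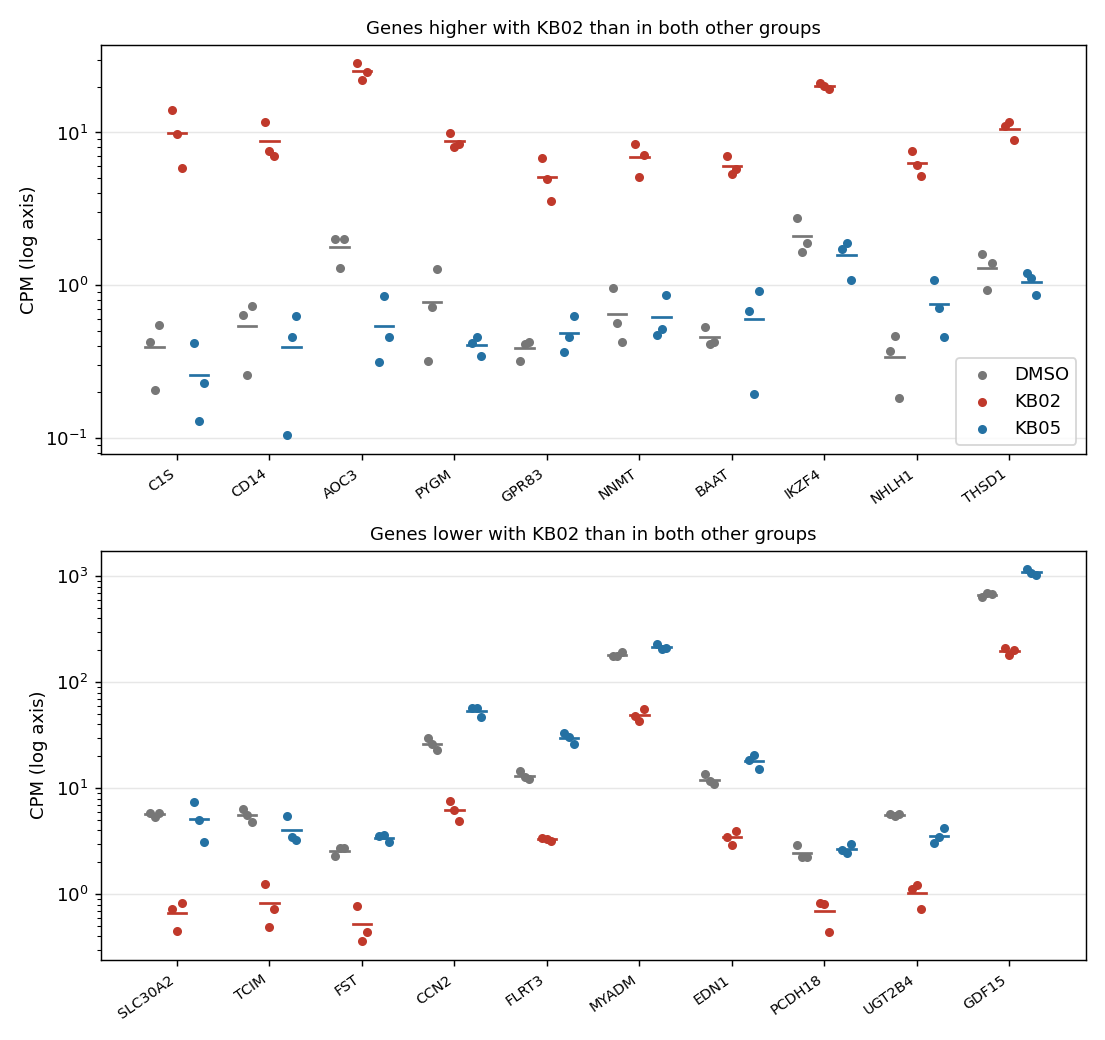
Level in each library of the 10 named genes higher (upper panel) and the 10 lower (lower panel) with KB02 than in both other groups, as TMM-scaled CPM on log axes with bars at group means of 3 libraries. The groups were chosen by these values. Rises start mostly below 3 CPM in DMSO, and falls include abundant genes such as GDF15 and MYADM.

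The position of these genes was examined after their values were seen. The 10 genes farthest above both other groups and the 4 raised by KB02 and lowered by KB05 are 13 genes in all, since AOC3 is in both sets. Of these 13, 12 had an expressed gene (mean log2 CPM of at least 4) on the same strand upstream of their start, overlapping or within 10 kb. The exception was GPR83. CD14 starts 5039 bases after the end of NDUFA2 on chromosome 5, AOC3 7426 bases after PSME3 on chromosome 17, and IKZF4 1018 bases after SUOX on chromosome 12. PYGM lies 4309 bases after SF1, NHLH1 8115 after NCSTN and KCND1 2151 after GRIPAP1. C1S with EMG1, THSD1 with VPS36, CHRNA10 with NUP98 and CRYGS with TBCCD1 overlap in the annotation, so reads between them are uncertain. Among the 12 genes chosen in the same way on the lower side, 0 had such a neighbour. Of the 12 upstream genes themselves, 3 were higher with KB02 (MRPL50, NUP98 and TBCCD1), 6 were lower and 3 were not called. The change was -0.26 for NDUFA2, -0.26 for SUOX and 0.14 for PSME3 on the log2 scale.

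The count was then extended to all low genes. Of 10101 tested genes with a mean log2 CPM below 4, 13.7% had such an upstream neighbour. The share was 36.6% of the 402 that were at least 2-fold higher than in both other groups, and 7.10% of the 183 that were at least 2-fold lower. Of 857 low genes at least 2-fold higher with KB02 against DMSO it was 25.0%, and of 732 at least 2-fold higher with KB05 it was 9.15%. The filter asks for enough counts in any 3 of the 9 libraries. A low gene can therefore pass it through the group where it is high, and such genes were not counted. These shares are a description of the genes that passed. Grouped by distance, among 9082 genes at 0.5 to 16 CPM in DMSO, 6.18% were called at least 2-fold higher with KB02. With an expressed gene 0 to 2 kb upstream on the same strand the share was 15.3% of 262, at 2 to 5 kb 11.6% of 276, at 5 to 10 kb 9.09% of 297, at 10 to 20 kb 8.72% of 413 and beyond 50 kb 5.12% of 6645. Genes that overlapped such an upstream neighbour lay outside this fall with distance. Of these 369, 8.94% were at least 2-fold higher and 7.32% at least 2-fold lower. With the expressed gene downstream on the same strand the share higher was 3.91% of 179 at 0 to 2 kb. At 2 to 5 kb it was 7.55% of 212. With one upstream on the other strand it was 6.25% of 528 at 0 to 2 kb, 5.33% of 75 at 2 to 5 kb, 9.23% of 130 at 5 to 10 kb and 8.30% of 241 at 10 to 20 kb. Beyond 5 kb the shares on the same strand and on the other strand were thus near each other. With KB05 the share at 0 to 2 kb upstream on the same strand was 4.58%. Whether these reads begin at the start of the low gene or belong to a transcript of the gene before it was not tested, since the table gives no positions of reads.

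**Figure D5:**
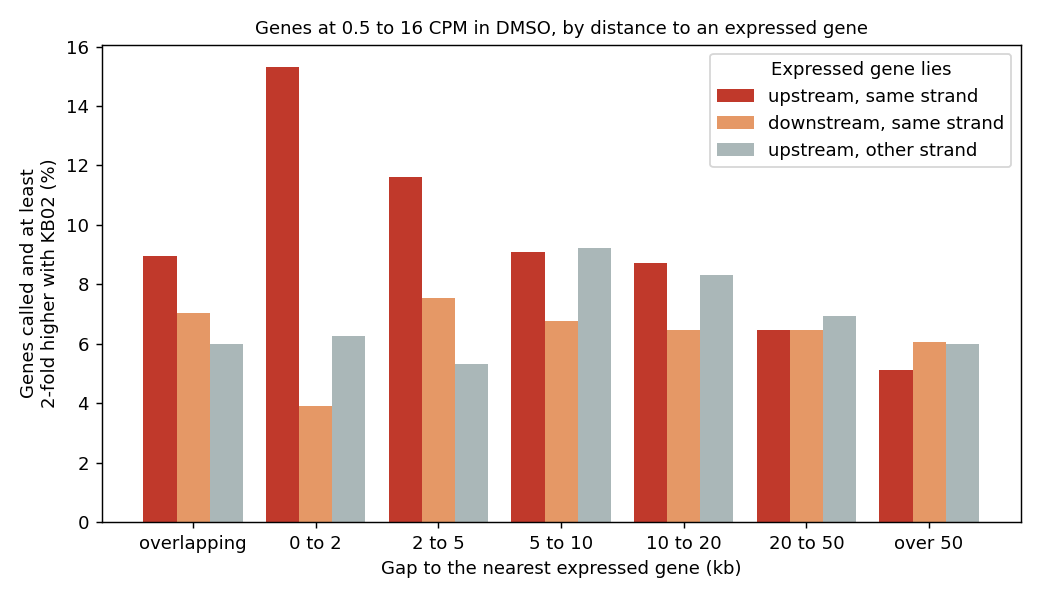
Share of genes at 0.5 to 16 CPM in DMSO that were called and at least 2-fold higher with KB02, by the gap in kb to the nearest expressed gene, for neighbours upstream on the same strand, downstream on the same strand and upstream on the other strand. For upstream neighbours on the same strand that do not overlap, the share falls from 15.3% at 0 to 2 kb to 5.12% beyond 50 kb. For overlapping ones it is 8.94%. At 5 to 10 kb it is 9.09% on the same strand and 9.23% for the other strand.

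The share of genes that rose was also compared by gene length. Among protein-coding genes, KB02 raised 25.9% of those spanning under 5 kb and 27.3% of those over 200 kb. KB05 raised 33.9% and 11.4% of the same genes. At 50 to 100 kb the shares raised were 20.9% with KB02 and 11.8% with KB05. KB02 lowered 26.3% of genes under 5 kb and 15.4% of those over 200 kb. By exon number, genes with 1 exon were higher in 32.9% with KB02 and 43.0% with KB05, and genes with over 20 exons in 25.0% and 4.50%. Among genes with a mean log2 CPM of 4 to 8, the KB02 shares were 28.7% under 5 kb and 37.2% over 200 kb. In the same classes the KB05 shares were 36.9% and 14.4%.

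Most genes of the endoplasmic reticulum lists were lower. Of 23 chaperones and disulfide isomerases, 21 were lower with KB02 and 1 was higher, with a median of -0.93, and of 20 sensors and degradation factors 14 were lower and 2 higher, with a median of -0.62. Their summed level, for the first list, was 16200 to 16500 CPM in DMSO, 8040 to 8510 CPM with KB02 and 11900 to 12800 CPM with KB05. PDIA3, a disulfide isomerase for glycoproteins, was at 431, 423 and 400 CPM in DMSO, 163, 170 and 154 CPM with KB02 and 246, 245 and 215 CPM with KB05. PDIA6, another isomerase, was at 534, 509 and 481 CPM in DMSO, 230, 220 and 191 CPM with KB02 and 391, 405 and 379 CPM with KB05. The 3 groups did not overlap for either gene. The log2 fold changes against DMSO were -1.36 ± 0.07 and -1.25 ± 0.07, and those against KB05 -0.53 ± 0.07 and -0.87 ± 0.07 (edgeR adjusted p = 2.92e-07 and 3.84e-11).

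The fall covered the central chaperone HSPA5 (BiP), with a log2 fold change of -1.17 ± 0.07. It also covered CALR and CANX, the lectin chaperones (-1.12 ± 0.07 and -0.77 ± 0.08). TXNDC5 and DNAJC10, a thioredoxin-like isomerase and a reductase that works with BiP, fell by 1.31 and 1.29. ATF6B, a membrane-bound sensor, fell by 1.16, and SELENOS and SYVN1, of the degradation machinery, by 1.03 and 0.98. DNAJB9, a BiP co-chaperone that restrains IRE1, was the exception among chaperones: it rose by 1.21 ± 0.10. HERPUD1, which ER stress usually raises, and NPLOC4 rose in the second list, by 0.39 ± 0.07 and 0.59 ± 0.08. EIF2AK3 and ERN1, the sensors PERK and IRE1, did not pass the test. HSPA5, CALR, CANX, DNAJB9, HERPUD1, NPLOC4, EIF2AK3 and ERN1 were chosen after their values were seen. Directly compared with KB05, 21 of the 23 chaperones were lower with KB02 and 0 higher, and 20 were lower than in both other groups.

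Zinc handling was a second group of falls. Of 27 metallothioneins, zinc transporters and their regulator, 21 were lower with KB02 and 1 higher, with a median of -0.80. With KB05, 10 were lower and 4 higher (median -0.13), and directly compared 20 were lower and 2 higher with KB02. SLC30A2, which moves zinc into vesicles, was at 5.87, 5.37 and 5.9 CPM in DMSO, 0.733, 0.45 and 0.831 CPM with KB02 and 7.4, 5.01 and 3.1 CPM with KB05. SLC30A1, the plasma membrane zinc exporter, was at 89.4, 85.7 and 84.3 CPM in DMSO, 31.7, 33.6 and 29.8 CPM with KB02 and 122, 108 and 87.4 CPM with KB05. MT1E, a metallothionein that binds zinc, was at 64.2, 70 and 67.5 CPM in DMSO, 20.9, 27.5 and 27.7 CPM with KB02 and 64.8, 68.4 and 71.3 CPM with KB05. For all 3 genes, every KB02 library was below every other library. The log2 fold change of SLC30A1 was -1.45 ± 0.09 with KB02 and 0.29 ± 0.09 with KB05. MTF1, the factor that senses zinc and drives metallothionein genes, was the member that rose, from 11.4, 10.9 and 10.6 CPM to 31.8, 31 and 29.6 CPM. MT1 genes are close copies, so the split of reads among them is uncertain. The core of the metal response element (TGCNCNC, both strands) was in 12 of 22 promoters of this list (54.5%), beside 56.1% of all promoters.

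Oxidant and electrophile defence genes were called in both directions. Of 34 NRF2 targets and regulators, 14 were higher and 10 lower with KB02, with a median of 0.08. These shares, 41.2% and 29.4%, lay beside 22.8% and 23.3% of all genes tested. HMOX1, haem oxygenase, was at 9.84, 8.16 and 11.3 CPM in DMSO, 43, 53.1 and 62.1 CPM with KB02 and 571, 547 and 515 CPM with KB05. It rose by 2.43 ± 0.15, which was 3.37 less than with KB05 on the log2 scale. MAFF, a small MAF partner of NRF2, rose by 1.59 ± 0.08 and OSGIN1, a stress-inducible growth inhibitor, by 1.53 ± 0.10. Both were higher than with KB05, by 0.58 ± 0.08 and 0.98 ± 0.10. BACH1, a repressor of the same sites, rose by 1.23 ± 0.15. SLC7A11, which imports cystine, rose by 0.84 ± 0.09 with KB02 and fell with KB05 (-0.47 ± 0.09). NQO1, a standard NRF2 target, fell, with -0.39 ± 0.10, and TXN, thioredoxin, fell by 0.77; SLC7A11, NQO1 and TXN were chosen after their values were seen.

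Of 36 glutathione and thioredoxin genes, 8 were higher (22.2%) and 13 lower (36.1%), beside 22.8% and 23.3% of all genes tested. The median of -0.11 turned to 0.02 with library sizes alone. Lower than in both other groups were 12, beside 13.3% of all genes tested. CHAC1, which degrades glutathione and is a target of ATF4 and CHOP, was at 9.9, 8.11 and 12.1 CPM in DMSO and 69.6, 66.1 and 80.5 CPM with KB02, a rise of 2.85 ± 0.11. Its difference from KB05 was -0.13 ± 0.09 and did not pass the test. The membrane-bound transferases MGST1 and MGST2 fell from 262, 213 and 180 CPM to 74, 76.4 and 64.7 CPM and from 121, 121 and 140 CPM to 32.8, 40.8 and 38.3 CPM. GPX8, a peroxidase of the endoplasmic reticulum, fell by 1.56.

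Genes of the integrated stress response were higher more often than lower. Of 32, 19 were higher and 8 lower with KB02, with a median of 0.39. DDIT3, which encodes CHOP, was at 62.6, 60.2 and 62.3 CPM in DMSO, 362, 365 and 424 CPM with KB02 and 589, 584 and 559 CPM with KB05, and ATF3 was at 49.6, 44.8 and 41.6 CPM, 281, 283 and 306 CPM and 475, 474 and 456 CPM in the same order. Both rose with KB02, by 2.64 ± 0.08 and 2.67 ± 0.08, and were lower than with KB05. SESN2, a leucine sensor that restrains mTORC1, was at 32.5, 31.6 and 32 CPM in DMSO, 171, 156 and 161 CPM with KB02 and 113, 111 and 95.8 CPM with KB05. Here KB02 exceeded KB05, by 0.61 ± 0.07. ATF4 itself rose by 1.09 ± 0.07 and ASNS, asparagine synthetase, by 1.12 ± 0.07, and both were higher than with KB05; they were chosen after their values were seen. Amino acid transporters of the list went the other way, with SLC7A5 at -0.51 ± 0.07 and SLC7A1 at -0.66 ± 0.08, likewise chosen. Aminoacyl-tRNA synthetases, which load amino acids on tRNA, were higher in 6 and lower in 5 of 20 cases: CARS1 rose by 0.65 ± 0.07 and QARS1 fell by 0.92.

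The 3 CYP1 genes, targets of the aryl hydrocarbon receptor, fell furthest of that pathway. CYP1A1, which oxidises aromatic hydrocarbons, was at 887, 970 and 963 CPM in DMSO, 9.35, 10.6 and 11.9 CPM with KB02 and 18, 12.4 and 16.2 CPM with KB05. CYP1A2 and CYP1B1 went from 57.1, 54.4 and 56.1 CPM to 1.16, 0.946 and 0.998 CPM and from 74.8, 86.3 and 76.1 CPM to 3.15, 2.97 and 2.38 CPM. The falls were 89.1-fold, 53.4-fold and 27.6-fold. CYP1A1 was lower with KB02 than with KB05 (-0.56 ± 0.12, adjusted p = 0.000414), and the differences for CYP1A2 (-0.49 ± 0.22) and CYP1B1 (-0.36 ± 0.15) did not pass the test. TIPARP, another target and a feedback repressor of the receptor, rose instead, by 0.85 ± 0.10. AHR itself did not pass the test (0.15 ± 0.12). Of the 13 genes tested in the list, 2 were higher (15.4%) and 4 lower (30.8%) with KB02. Over all genes tested the shares were 22.8% and 23.3%.

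Of 13 genes of the MYC network, 3 were higher (23.1%) and 4 lower (30.8%) with KB02, beside 22.8% and 23.3% of all genes tested. MYC itself was at 157, 135 and 136 CPM in DMSO, 25.3, 23.1 and 20.4 CPM with KB02 and 39.4, 39.2 and 37.7 CPM with KB05, with a log2 fold change of -2.63 ± 0.08 and a further difference of -0.75 ± 0.09 from KB05. MYCN, a relative of MYC chosen after its values were seen, was at 2.12, 1.34 and 2.31 CPM in DMSO, 0.215, 0.135 and 0.222 CPM with KB02 and 1.2, 1.82 and 1.44 CPM with KB05. Its KB02 values are those of a few reads, and the call against DMSO was -3.29 ± 0.44. MXD1, which competes with MYC for MAX, was at 7.89, 8.57 and 7.54 CPM in DMSO, 49.4, 50.6 and 46.5 CPM with KB02 and 22.6, 24.7 and 22.4 CPM with KB05. Ribosome biogenesis genes, which MYC is known to drive, were higher in 20 and lower in 4 of 38 cases, with a median of 0.21, and 13 were higher than in both other groups. NOP2, an rRNA methyltransferase, rose from 118, 124 and 131 CPM to 265, 243 and 258 CPM. UTP20, a factor of small-subunit assembly, rose by 0.83 ± 0.08, and the difference from KB05 was 1.04 ± 0.09. Among 87 cytosolic ribosomal protein genes, 27 were higher and 4 lower, and RPL30 fell by 0.73 and RPL12 rose by 0.48 ± 0.07.

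Cell cycle genes were lower more often than higher. Of 28 G1/S genes, 5 were higher and 16 lower with KB02 (median -0.30), beside 3 and 13 with KB05. Of 29 mitotic genes, 0 were higher and 15 lower (median -0.23), beside 1 and 16. Directly compared, 4 G1/S genes were higher and 8 lower with KB02 than with KB05, and 6 mitotic genes were higher and 4 lower. MKI67, the proliferation antigen, was at 85.3, 87.1 and 75.7 CPM in DMSO, 26.9, 28.2 and 26.2 CPM with KB02 and 34.8, 28.8 and 27.4 CPM with KB05, and the difference between the compounds did not pass the test (-0.16 ± 0.09, 95% interval -0.35 to 0.02). CCNE2, a cyclin of the entry into S phase, fell by 1.35, and its relative CCNE1 rose by 1.18 ± 0.12 from 7.57, 8.31 and 7.66 CPM. CCNE1 was higher than with KB05 by 1.07 ± 0.12. Replication-dependent histone genes, whose mRNAs usually carry no poly(A) tail, were higher in 11 and lower in 3 of 45 with KB02. These shares, 24.4% and 6.7%, lay beside 22.8% and 23.3% of all genes tested. With KB05, 36 of the 45 were higher, beside 18.7% of all genes tested. The median difference between the compounds was -1.38, and reads of these near-identical genes are divided by estimate.

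Death and p53 genes showed both directions. Of 26 p53 targets, 12 were higher (46.2%) and 5 lower (19.2%), beside 22.8% and 23.3% of all genes tested. PMAIP1, the BH3-only protein NOXA, was at 11.6, 10.2 and 9.73 CPM in DMSO and 53.6, 41.7 and 39.8 CPM with KB02, and BBC3, its relative PUMA, rose by 1.11 ± 0.13. Both are also targets of stress factors other than p53. In the BCL2 family list, with 9 higher and 2 lower of 21, the BH3-only gene BMF fell from 35.2, 47.6 and 53.9 CPM to 9.14, 8.42 and 8.37 CPM. GDF15, a secreted stress cytokine counted among p53 targets, was at 638, 698 and 683 CPM in DMSO, 210, 182 and 200 CPM with KB02 and 1168, 1084 and 1019 CPM with KB05. KB02 lowered GDF15 (-1.77 ± 0.07) and KB05 raised it (0.70 ± 0.07), and the 3 groups did not overlap.

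GDF15 was 1 of the 10 named genes farthest below both other groups. CCN2, connective tissue growth factor and a target of YAP (chr6:131948176-131951373), was at 30.1, 25.9 and 22.9 CPM in DMSO, 7.63, 6.26 and 4.88 CPM with KB02 and 57.1, 57.5 and 46.8 CPM with KB05. FLRT3, an adhesion protein, was at 14.6, 12.8 and 12.2 CPM in DMSO, 3.4, 3.33 and 3.16 CPM with KB02 and 33.1, 30.5 and 26 CPM with KB05. MYADM, a membrane protein of lipid rafts, was at 176, 177 and 192 CPM in DMSO, 48.4, 43.6 and 56.2 CPM with KB02 and 229, 207 and 211 CPM with KB05. All KB02 libraries were below all others for these 3 genes, and the differences from KB05 were -3.09 ± 0.14, -3.17 ± 0.13 and -2.13 ± 0.08. EDN1, the vasoconstrictor endothelin, fell by 1.82, and FST, the activin antagonist follistatin, by 2.26. UGT2B4, a glucuronosyltransferase, fell by 2.45 and PCDH18, a protocadherin, by 1.81. TCIM went from 6.4, 5.63 and 4.8 CPM to 1.25, 0.495 and 0.72 CPM. FIGNL2 and SP8, with FLRT3 and CCN2, were the 4 taken, by the size of the change, from the genes that KB02 lowered and KB05 raised.

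Of 19 YAP and TEAD factors and targets, the pathway of CCN2, 5 were higher and 5 lower with KB02, 26.3% each, near the shares over all genes tested. CCN1, a target closely related to CCN2, rose by 0.51 ± 0.08 with KB02 and by 2.81 ± 0.08 with KB05; it was chosen after its values were seen. NUAK2 and AMOT fell by 0.70 and 0.64. Among EGF receptors and ligands, ERBB2 fell from 109, 122 and 122 CPM to 54.4, 49.4 and 58.4 CPM, AREG, amphiregulin, fell by 1.18, and HBEGF, a ligand released under stress, rose by 1.92 ± 0.15.

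Epithelial genes were lower with KB02. Of 20 luminal and junction genes, 13 were lower and 5 higher, with a median of -0.55, and 10 were lower than in both other groups. CLDN7, a tight junction claudin, was at 807, 770 and 789 CPM in DMSO, 296, 288 and 282 CPM with KB02 and 606, 594 and 591 CPM with KB05. EPCAM, the epithelial adhesion molecule, was at 179, 170 and 157 CPM in DMSO, 64.4, 66.1 and 55.4 CPM with KB02 and 126, 126 and 136 CPM with KB05. The groups did not overlap, and the log2 fold changes were -1.45 ± 0.07 and -1.44 ± 0.08. DSP, desmoplakin, fell by 1.65 and FOXA1, the pioneer factor of luminal cells, by 0.92. SNAI1, a repressor of epithelial genes, was at 1.11, 1.29 and 1.82 CPM in DMSO, 30.1, 26.6 and 19.6 CPM with KB02 and 11.6, 11.5 and 10.8 CPM with KB05, and its rise of 4.19 ± 0.18 exceeded that with KB05 by 1.17 ± 0.14. In the list of EMT factors and mesenchymal genes that holds it, 2 of 10 were higher (SNAI1 and TWIST1) and 3 lower. For a list of 10 genes, these counts are near the shares over all genes tested (22.8% higher and 23.3% lower). CDH2, N-cadherin, fell by 0.89 and FN1, fibronectin, by 0.65.

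Androgen-responsive genes were lower more often than higher. Of 27, 12 were lower and 5 higher with KB02 (median -0.18), while with KB05 5 were lower and 11 higher, and 11 were lower with KB02 than in both other groups. KLK3, which encodes prostate-specific antigen, was at 47.3, 52.7 and 54.2 CPM in DMSO, 35.1, 36.4 and 35.7 CPM with KB02 and 65.4, 59.5 and 71.6 CPM with KB05. The 3 groups did not overlap, and KB02 lay 0.87 below KB05 on the log2 scale. TMPRSS2, an androgen-driven protease, fell by 1.34 and PLPP1, a lipid phosphatase, by 1.59. SGK1, a kinase also raised by steroids and stress, rose by 1.59 ± 0.17.

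Of 31 sterol and fatty acid genes, 11 were higher and 15 lower. HMGCS1 and IDI1, early enzymes of the mevalonate route, rose by 0.96 ± 0.07 and 0.79 ± 0.07. EBP and TM7SF2, late enzymes of cholesterol synthesis, fell from 433, 416 and 442 CPM to 164, 161 and 144 CPM and from 297, 308 and 326 CPM to 120, 115 and 117 CPM. SCD, the stearoyl-CoA desaturase, fell by 1.29. HMGCS1 and IDI1 were chosen after their values were seen.

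Genes of the respiratory chain were lower more often than higher. Of 13 mitochondrially encoded protein genes, 12 were lower with KB02 and 12 with KB05, with medians of -0.56 and -0.57. Among 75 nuclear genes for respiratory chain subunits, 36 were lower and 6 higher with KB02, beside 15 and 12 with KB05, and 31 were lower with KB02 than in both other groups. NDUFB6, of complex I, was at 115, 123 and 125 CPM in DMSO, 54, 55.8 and 47.4 CPM with KB02 and 83.7, 90.1 and 80.8 CPM with KB05. SDHC, of complex II, fell by 0.98, COX5B, of complex IV, by 0.84 and ATP5F1A, of the ATP synthase, by 0.84. Since CPM are shares of a library, less RNA of a gene and more RNA of others cannot be told apart in them.

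Of 39 proteasome genes, 10 were higher and 7 lower, shares of 25.6% and 17.9% that are near those over all genes tested, with ADRM1, a ubiquitin receptor, up by 0.61 ± 0.07 and PSMA6 down by 0.58. Of 21 hypoxia targets, 9 were higher (42.9%) and 5 lower (23.8%), beside 22.8% and 23.3% of all genes tested. ADM, adrenomedullin, rose from 12.8, 11.3 and 12.3 CPM to 149, 133 and 111 CPM, CA12, a carbonic anhydrase, fell by 1.35, and KDM3A, a histone demethylase, rose by 1.02 ± 0.09 and exceeded KB05 by 1.02 ± 0.09.

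Among abundant genes, some of the deepest falls lay outside these lists. CST3, the protease inhibitor cystatin C (chr20:23626706-23638473), was at 323, 347 and 390 CPM in DMSO, 69.6, 66.6 and 84.1 CPM with KB02 and 232, 202 and 208 CPM with KB05. TSPAN8, a tetraspanin, was at 518, 459 and 467 CPM in DMSO, 145, 141 and 120 CPM with KB02 and 296, 337 and 325 CPM with KB05. PRSS23, a serine protease, was at 296, 209 and 201 CPM in DMSO, 74.2, 72.1 and 58.6 CPM with KB02 and 164, 160 and 153 CPM with KB05. KB05 lowered all 3 as well, and KB02 lowered them further, by 1.55, 1.24 and 1.22 on the log2 scale.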

How the data were processed

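RNA, given in the labels as total RNA, was profiled in 9 libraries of 22Rv1 cells, 3 per group. The authors deposited estimated counts per gene, and the submitters' processing notes name Salmon 1.3.0, DESeq2 1.30.1 and the builds hg38 and GRCh38.p13. Between 20.3% and 24.3% of values per library were not whole, and all were rounded before testing. Strand setting and RNA selection, not given in the sources used here, are unknown. Column names carry a 2h tag where the labels give 3 h. Counts were fitted in R 4.3.3 with edgeR 4.0.16 (filterByExpr with a minimum count of 10, TMM factors, robust quasi-likelihood, 3 groups, no block), and each comparison was a contrast of that fit. SE is the log2 fold change divided by the square root of F, and intervals are at 95%. Replicates of a group differed by more than sampling noise (chi-square per degree of freedom 4.56 to 10.8). Gene names matched 60064 of 60232 identifiers, and genes with near-identical copies or overlaps have uncertain counts. Positions come from GENCODE 29 and promoters from RefSeq. The model was tested on simulated data. Named are the 10 genes apart in KB02 in each direction, ranked by the smaller of their changes against DMSO and KB05, the 6 largest rises and falls among abundant genes (mean log2 CPM from 6 up), 4 genes in each direction with opposite calls, and the 4 largest calls of each of 43 lists. A few genes that this rule names are not reported here. The members and lists were chosen with earlier results of these data known. The 15 samples at 8 h were not analysed here.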

Additional observations from a re-analysis of the deposited data

How the results depend on the processing

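Counts of called genes were recomputed under other scaling factors, filters, thresholds, DESeq2 1.42.0, fits of 2 groups and without each library in turn. With library size only, genes at least 2-fold lower with KB02 numbered 769 in place of 1154, calls against DMSO were higher in 63.8% in place of 49.5%, calls against KB05 in 62.6% in place of 45.6%, and the median over all genes moved to 0.13. Genes at least 2-fold lower than in both other groups then numbered 156 in place of 243. A minimum count of 30 lowered 3 counts at 2-fold: 486 in place of 756 for KB02 below KB05, 594 in place of 913 for KB05 above DMSO and 316 in place of 490 for KB02 above both. In the other settings and counts (calls in each direction, and calls at 2-fold, for each comparison and for both together), counts over all genes stayed within 1.5 times their value. Without 1 library, genes higher with KB02 numbered 3864 to 4262 and lower 3543 to 4310, and genes higher than in both other groups 1867 to 2199 and lower 1908 to 2448. With replicate number as a block, 4242 were higher and 4358 lower, but same-numbered libraries deviated together only weakly (correlations -0.105 to 0.241), so the numbers were not read as pairs. Of 194 named genes called against DMSO, 4 lost the call in some setting (KRT8, MT-ND3, NR1D1 and PSMB9) and 0 reversed, and of 158 called against KB05, 25 lost it. ZFAND2A, which was not called between the compounds (-0.00), ranged from -0.16 to 0.24 when 1 library was left out, and passed the test at 0.24 without KB05 replicate 3. List medians against DMSO changed sign in some setting for chaperonins, glutathione, EGF, MYC network, proteasome and other-cell-type genes. List medians against DMSO and against KB05 were checked in each setting. In 281 checks the median moved by more than its standard deviation among KB02 libraries, and in 1181 it did not.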
